A study of Mus musculus with 9 samples.

Results

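Replication-dependent histone genes encode the core histones H2A, H2B, H3 and H4 and the linker histone H1 that package newly made DNA during S phase. Their mRNAs are an exception among those of animals: most are not polyadenylated, and end shortly after a conserved stem-loop that the stem-loop binding protein SLBP holds through processing, translation and decay. Some of these genes can also yield polyadenylated mRNA, mainly in cells that have left the cell cycle or are differentiating. Platelets have no nucleus but carry RNA from the megakaryocytes that made them, and immature red cells keep RNA for a time after losing their nucleus.

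The genes were described in 9 RNA-seq libraries of mouse monocytes, 3 per group. In the P7 platelet group, adult monocytes were incubated for 4 h with P7 platelets (P7 being the usual abbreviation of postnatal day 7). In the adult platelet group they were incubated for 4 h with adult platelets. In the control group they were incubated for 4 h with control buffer. The monocytes were then washed and their polyadenylated RNA, selected with oligo-dT beads, was sequenced from a stranded library kit as single 75 nt reads. The strain, the number of animals, and whether the 3 libraries of a group came from separate cultures were not given in the sources used here, so a p-value here measures the spread among these libraries alone, which may be technical.

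The genes were those whose symbol starts with Hist1h to Hist4h, without pseudogenes, and with at least 10 reads summed over the 9 libraries. The deposited tables list most mouse histones under newer symbols, so that this pattern found only 3 genes over the minimum in them (Hist1h2an, Hist1h2bp and Hist1h4m). A further 47 were found by the older symbols that the RefSeq gene table gives for the same genes, a step added once the tables had been seen and based on names alone. The 50 genes, of 55367 symbols in each library, comprised 5 of class H1, 10 of H2A, 13 of H2B, 10 of H3 and 12 of H4. Of these, 41 lie on chromosome 13, 6 on chromosome 3, 2 on chromosome 11 and 1 on chromosome 6.

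The library totals ranged from 29687341 to 37065564 counts, of which the 50 genes held 42165 counts over the 9 libraries. The 10 monocyte markers all had counts and held between 2.50% and 3.13% of each library. Markers of other cells moved with the groups. The 18 platelet markers held 0.191% to 0.224% of counts in the P7 platelet libraries, 0.111% to 0.202% in the adult platelet libraries and 0.00247% to 0.00282% in the controls. The 11 erythroid markers held 4.37% to 5.52% in the P7 platelet libraries, 0.0504% to 0.180% in the adult platelet libraries and 0.00122% to 0.00152% in the controls. Each of these markers had counts in some library. Immunoglobulin kappa (Igkc) set 4 libraries apart across the groups, namely P7 platelet replicate 1, adult platelet replicates 1 and 3 and control replicate 1, each with over 300 Igkc CPM against 123 to 172 in the others. In such bulk libraries, fewer cells of a type and less RNA per cell cannot be told apart.

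The stem-loop was the first feature sought, since oligo-dT selection acts on the other kind of 3′ end. It was searched as GGNNCT, the loop TNTN and AGNNCC in 1 run on the sense strand of the annotated 3′ untranslated region of each gene's main transcript (GENCODE M21, GRCm38). It was present in 37 of the 50 genes, against 90 of 21834 other protein-coding genes (0.412%), which were searched in all their transcripts. The forms below are those of 3 genes that recur in the results and of H2bc3, shown for the other form carried by more than 2 genes, with the 6 pairs of the stem in capitals and the 4 bases of the loop in lower case.
H1f2: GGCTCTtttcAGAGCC
H4c3: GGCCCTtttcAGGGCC
H4c9: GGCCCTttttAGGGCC
H2bc3: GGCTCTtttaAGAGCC
The form of H1f2 was carried by 19 of the 50 genes, that of H4c3 by 6, that of H4c9 by 2 and that of H2bc3 by 5. H2bc4 and H2bc21, which have many reads below, had no match in the annotated transcript.

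In their promoters the genes also share motifs. Of the 50 genes, 45 matched a RefSeq promoter (GRCm38.p6, 300 bases, from 250 before to 50 after the start). A CCAAT box (CCAAT, both strands) was found in 37 of the 45, against 37.4% of 32851 promoters, and a TATA box (TATAAA, both strands) in 27, against 13.6%. The octamer ATTTGCAT, known as a binding site of Oct-1 in H2B promoters and sought on both strands, was found in 5 of 10 H2A and 6 of 11 H2B promoters, in none of the H1, H3 and H4 promoters, and in 1.74% of all promoters. None of these motifs contains another. H2A and H2B genes often lie head to head on a shared stretch, and 13 such pairs were annotated among all histone rows, 176 to 306 nt apart. The pair H2ac6 and H2bc4, both higher in the platelet groups below, starts 251 nt apart on chromosome 13, and H2ac20 and H2bc21 start 239 nt apart on chromosome 3. Each stretch is shown as the promoter of its H2A gene, with the CCAAT, TATA and octamer matches in capitals on either strand.
H2ac6 (chr13:23683910-23684209, GRCm38.p6, minus strand): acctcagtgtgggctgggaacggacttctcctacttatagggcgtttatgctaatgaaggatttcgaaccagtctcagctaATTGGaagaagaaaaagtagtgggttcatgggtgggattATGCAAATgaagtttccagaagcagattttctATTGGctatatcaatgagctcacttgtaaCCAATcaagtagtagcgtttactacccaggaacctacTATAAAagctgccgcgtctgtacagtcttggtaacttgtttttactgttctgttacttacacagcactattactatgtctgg
H2ac20 (chr3:96220831-96221130, GRCm38.p6, minus strand): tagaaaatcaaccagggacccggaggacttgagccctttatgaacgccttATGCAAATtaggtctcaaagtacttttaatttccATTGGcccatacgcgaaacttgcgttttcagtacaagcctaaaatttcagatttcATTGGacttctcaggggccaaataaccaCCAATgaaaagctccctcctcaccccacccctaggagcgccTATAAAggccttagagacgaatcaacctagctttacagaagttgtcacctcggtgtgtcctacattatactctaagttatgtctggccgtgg
Both stretches hold all 3 motifs, and the H2B partners in them, H2bc4 and H2bc21, went opposite ways in the comparison of P7 platelets with control. Matches of this kind describe the letters of these windows only.

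Summed over the 50 genes, histone reads were higher in both platelet groups. The sum was 217.0, 194.9 and 201.4 CPM (counts scaled to the size of each library with TMM factors) in the 3 P7 platelet libraries, 158.4, 104.3 and 161.7 CPM in the adult platelet libraries, and 84.6, 90.2 and 82.0 CPM in the controls. The 3 groups did not overlap, although adult platelet replicate 2 lay close to the controls. The mean ratio of sums was 2.39 for P7 platelets against control, 1.65 for adult platelets against control and 1.45 for P7 against adult platelets. Few genes made up these sums: H1f2 alone held 46.1% of all histone counts, H2bc4 64.6% of those of H2B, H4c9 71.6% of those of H4 and H2aw 52.4% of those of H2A. Without H1f2 the log2 ratio of sums was 1.46 in place of 1.26 for P7 platelets against control and 1.14 in place of 0.72 for adult platelets against control.

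**Figure D1:**
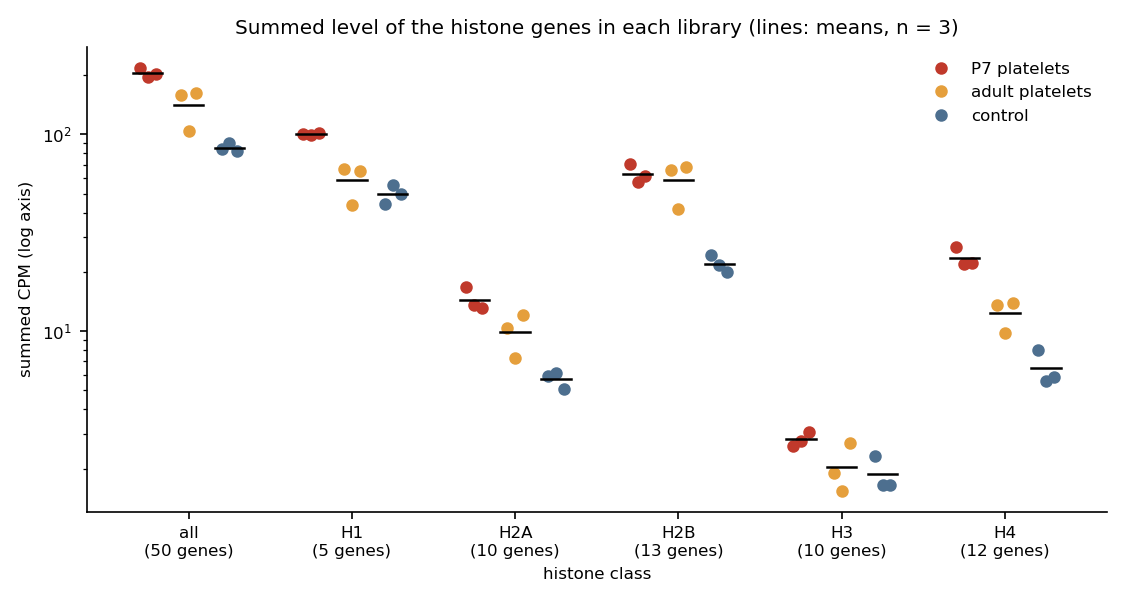
Summed CPM (log axis) of the 50 histone genes and of each class in the P7 platelet, adult platelet and control libraries, with lines at the means of 3 libraries. H4 sums averaged 23.5 CPM with P7 platelets, 12.4 CPM with adult platelets and 6.46 CPM in controls, whereas H3 sums lay between 1.55 and 3.08 CPM in all 9 libraries.

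By class, the H4 sum had the largest ratio of P7 platelets to control, 3.64. It was 23.5 ± 2.66 CPM in P7 platelet libraries, 12.4 ± 2.25 CPM in adult platelet libraries and 6.46 ± 1.32 CPM in controls (mean ± SD, n = 3 each). The H2B sum was 63.1 ± 6.98 CPM with P7 platelets, 58.5 ± 14.6 CPM with adult platelets and 22.0 ± 2.19 CPM in controls. Its rise with P7 platelets was that of H2bc4, which averaged 49.7 CPM with P7 platelets, 39.7 CPM with adult platelets and 5.97 CPM in controls. Without H2bc4 the mean H2B sum was lower with P7 platelets than in control, and higher with adult platelets. The H2A sum was 14.4 ± 1.96 CPM with P7 platelets, 9.90 ± 2.42 CPM with adult platelets and 5.69 ± 0.551 CPM in controls. The H1 sum set P7 platelets apart, at 100.5 ± 1.12 CPM, from adult platelets at 58.6 ± 12.7 CPM and control at 49.6 ± 5.57 CPM. The H3 sum was small everywhere, 2.82 ± 0.243 CPM with P7 platelets, 2.05 ± 0.591 CPM with adult platelets and 1.88 ± 0.390 CPM in controls.

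Of the 50 genes, 24 had enough reads to be tested, and the other 26 held 11 to 65 counts each, 2.32% of the histone counts together. Of the 24, 15 were over the minimum in all 3 control libraries, and the other 9 passed only with the platelet libraries counted, so the numbers over the 24 are a description and support no statement about histone genes as a whole. With edgeR's quasi-likelihood test and Benjamini-Hochberg adjustment over 13707 genes (adjusted p under 0.05), 10 of the 24 were higher and 2 lower with P7 platelets than in control, 12 of 24 genes where 59.2% of all genes tested were called. Adult platelets against control gave 6 higher and 0 lower, 25.0% against 26.4%. In that comparison the DESeq2 and limma-voom tests also gave 0 lower. P7 against adult platelets gave 6 higher and 1 lower, 29.2% against 39.6%. The share of histone genes called was therefore at or under that of all genes in each comparison. Among all genes, 29.9% were higher and 29.3% lower with P7 platelets than in control, 14.3% and 12.0% with adult platelets than in control, and 19.7% and 19.8% with P7 than with adult platelets.

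The median log2 fold change of the 24 genes was 0.66 for P7 platelets against control, beside -0.01 over all genes tested, 0.53 beside -0.00 for adult platelets against control, and 0.06 beside -0.02 for P7 against adult platelets. Those medians include the 9 genes that passed only with the platelet libraries counted. Among the other 15 the middle value was that of H2aw, 0.28 with P7 platelets and 0.27 with adult platelets against control. Of the 15 genes over the minimum in every control library, 5 were higher and 2 lower with P7 platelets than in control, 4 higher and 0 lower with adult platelets than in control, and 3 higher and 1 lower with P7 than with adult platelets. The balance of all genes depended on the scaling. Upper-quartile factors gave 3279 genes higher and 5012 lower for P7 platelets against control in place of 4097 and 4014, and 2106 and 3556 in place of 2706 and 2718 for P7 against adult platelets. They moved the median of all genes to -0.12 and -0.10 in these 2 comparisons, and left the numbers of histone genes called within 1.5 times those given. The histone genes' groups did not overlap in 16 of the 24 for P7 platelets against control (69.1% of all genes tested), in 8 for adult platelets against control (42.7%) and in 8 for P7 against adult platelets (49.0%). The 3 comparisons share libraries, so the lists of genes called in them are not independent.

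**Figure D2:**
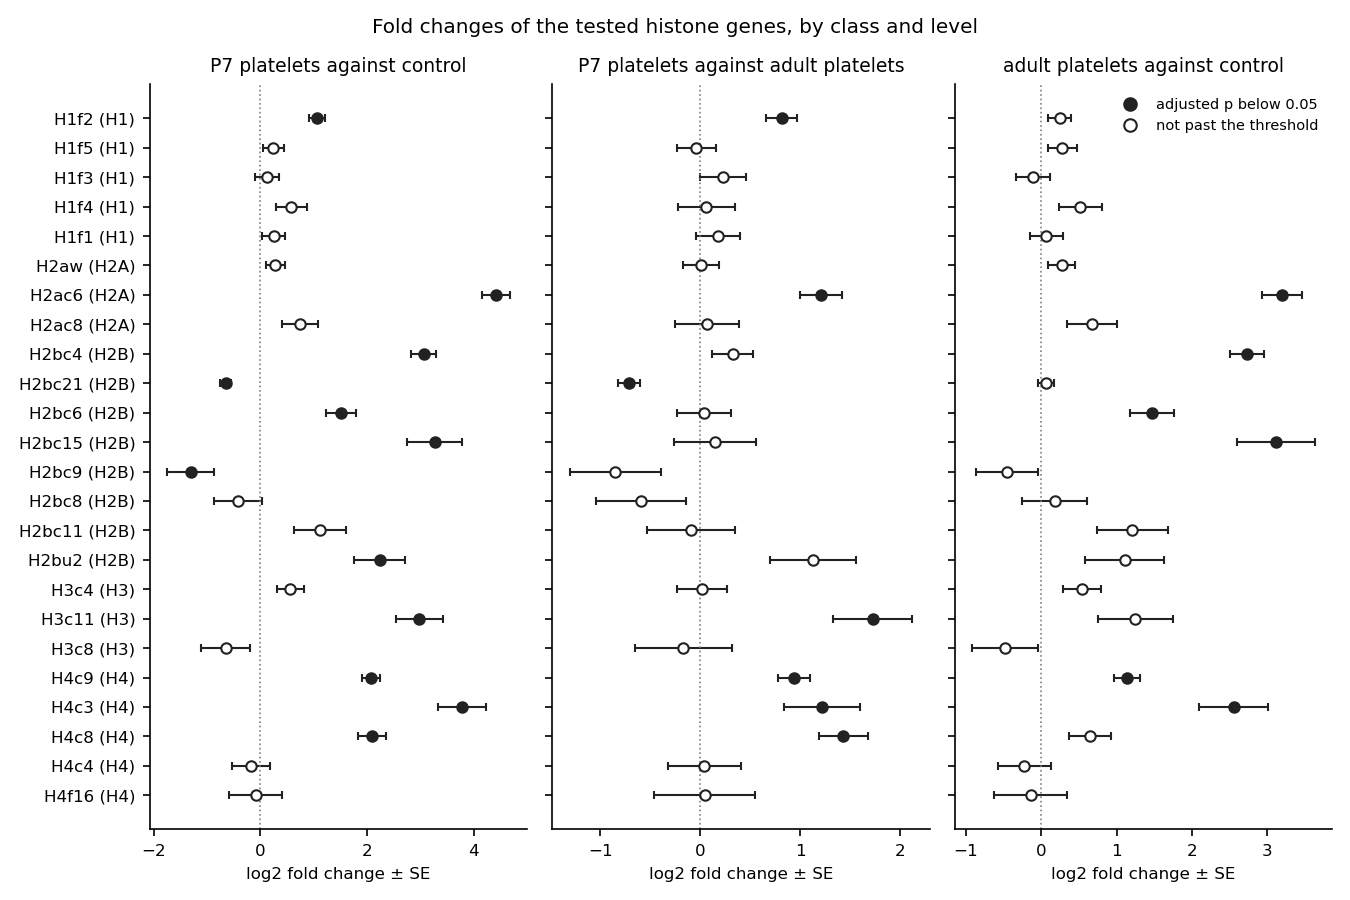
Log2 fold changes with standard errors of the 24 tested histone genes, ordered by class and then by level, for P7 platelets against control, P7 against adult platelets, and adult platelets against control (n = 3 libraries each). Filled points passed an adjusted p of 0.05. H2ac6 stands furthest to the right for P7 platelets against control, at 4.41, and H2bc21 and H2bc9 are the 2 filled points below 0 there.

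The linker histones bind DNA between nucleosomes, and among them H1f2 (H1.2) was the gene with most reads. It stood at 96.7, 95.7 and 98.0 CPM in the P7 platelet libraries, 62.5, 40.6 and 62.0 CPM in the adult platelet libraries, and 40.7, 52.0 and 46.7 CPM in the controls. P7 platelet libraries lay above all others and close together, while adult platelet and control libraries overlapped. H1f2 was higher with P7 platelets than in control by a log2 fold change of 1.06 ± 0.15 (SE, adjusted p = 0.000289, edgeR) and higher than with adult platelets by 0.82 ± 0.15 (adjusted p = 0.00272, edgeR). The difference between adult platelets and control, 0.24 ± 0.15, did not pass (adjusted p = 0.275, edgeR), and without adult platelet replicate 2 it was 0.43 ± 0.09 (adjusted p = 0.0122). The other H1 genes did not pass in any comparison. H1f5 stood at 1.24, 1.51 and 1.38 CPM with P7 platelets, 1.74, 1.32 and 1.19 CPM with adult platelets and 1.25, 1.15 and 1.09 CPM in controls, and the groups overlapped. H1f1, H1f3 and H1f4 averaged 0.551, 0.904 and 0.703 CPM over the 9 libraries.

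In class H2A, H2ac6 (older symbol Hist1h2ac) changed and H2aw did not pass. H2ac6 stood at 9.34, 7.69 and 7.10 CPM in the P7 platelet libraries, 3.39, 2.43 and 4.60 CPM in the adult platelet libraries and 0.375, 0.341 and 0.405 CPM in the controls. The 3 groups were wholly separate. Its log2 fold change was 4.41 ± 0.26 for P7 platelets against control (adjusted p = 1.95e-06, edgeR), 3.20 ± 0.26 for adult platelets against control (adjusted p = 5.75e-05) and 1.21 ± 0.21 for P7 against adult platelets (adjusted p = 0.00204). In the annotation H2ac6 overlaps the predicted genes Gm24991 on its own strand and Gm44350 on the other. H2aw, a histone 2A gene outside the large cluster (older symbol Hist3h2a), had most reads of its class. It stood at 6.29, 4.94 and 4.95 CPM with P7 platelets, 6.20, 3.98 and 5.93 CPM with adult platelets and 4.70, 4.78 and 3.85 CPM in controls. Adult platelet libraries spanned nearly the whole range of the other groups, and the largest of its 3 log2 differences was 0.28 ± 0.18 (P7 platelets against control, adjusted p = 0.219, edgeR). H2aw shares exon sequence with Trim17 on the same strand in the annotation, so its reads may be split between them. H2ac8, the third H2A gene tested, averaged 0.388 CPM and did not pass in any comparison.

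Class H2B held genes that rose, genes that fell and genes that did not pass. H2bc4 (older symbol Hist1h2bc), the head-to-head partner of H2ac6, stood at 55.1, 45.1 and 48.7 CPM in the P7 platelet libraries, 44.7, 25.3 and 49.1 CPM in the adult platelet libraries and 6.63, 5.85 and 5.42 CPM in the controls. Both platelet groups lay far above control and overlapped each other. Its log2 fold change was 3.06 ± 0.23 for P7 platelets against control (adjusted p = 7.08e-06, edgeR) and 2.73 ± 0.23 for adult platelets against control (adjusted p = 7.05e-05). Between P7 and adult platelets it was 0.32 ± 0.21 (adjusted p = 0.245), but 0.52 ± 0.13 where the 4 libraries high in Igkc had a term of their own (adjusted p = 0.0134).

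The ratio of H2ac6 to H2bc4 lay at other values in each group, although both were higher with platelets. H2ac6 had 16.9, 17.0 and 14.6 counts per 100 counts of H2bc4 in the P7 platelet libraries, 7.59, 9.61 and 9.36 in the adult platelet libraries and 5.66, 5.83 and 7.48 in the controls. The 3 groups did not overlap, and the exact two-sided permutation test gave p = 0.1 for each pair of groups, the smallest p that 3 libraries against 3 allow. Adult platelets and control were parted narrowly, by 7.59 against 7.48, and the control ratios rest on 13 to 16 counts of H2ac6 a library. Of the 3 other head-to-head pairs compared, H2ac8 with H2bc8 (exact permutation p = 0.3 to 0.8) and H2ac15 with H2bc15 (0.2 to 0.6) overlapped between groups. H2ac20 had 1.80 ± 0.301 counts per 100 of H2bc21 with P7 platelets, 0.905 ± 0.0432 with adult platelets and 1.48 ± 0.149 in controls (SD, n = 3 each), on 3 to 8 counts of H2ac20 a library. The same exact test gave p = 0.2 for P7 platelets against control and p = 0.1 for adult platelets against control and for P7 against adult platelets, unadjusted for the 12 tests of these pairs.

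H2bc21 (older symbol Hist2h2be) went the other way. It stood at 9.37, 7.20 and 7.58 CPM in the P7 platelet libraries, 14.4, 12.7 and 12.5 CPM in the adult platelet libraries and 13.3, 13.0 and 11.8 CPM in the controls, so that each P7 platelet library lay below the other 6. It fell by 0.65 ± 0.11 on the log2 scale with P7 platelets against control (adjusted p = 0.000688, edgeR) and by 0.71 ± 0.11 against adult platelets (adjusted p = 0.00104). For adult platelets against control its log2 fold change was 0.06 ± 0.11 (adjusted p = 0.723). H2ac20, its head-to-head partner, had 3 to 8 counts in each library and was not tested.

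H2bc6 rose with both kinds of platelets. It stood at 2.51, 1.81 and 1.64 CPM with P7 platelets, 2.40, 1.52 and 1.90 CPM with adult platelets and 0.950, 0.551 and 0.583 CPM in controls, and the control libraries lay below all others. Its log2 fold change was 1.51 ± 0.29 for P7 platelets against control (adjusted p = 0.00155, edgeR) and 1.47 ± 0.29 for adult platelets against control (adjusted p = 0.00595). Its exons overlap those of H1f4 on the same strand in the annotation, and H1f4 did not pass (0.58 ± 0.29 for P7 platelets against control, adjusted p = 0.112). H2bc15 had 1.61, 1.17 and 0.996 CPM with P7 platelets, 0.996, 0.572 and 1.84 CPM with adult platelets and 0.20, 0.0787 and 0.101 CPM in controls. It was over the minimum in all platelet libraries and in 0 controls, so it was tested only through the groups where it was high. Its log2 fold change was 3.27 ± 0.52 for P7 platelets and 3.12 ± 0.52 for adult platelets against control (adjusted p = 0.000496 and 0.00268, edgeR). Only 27.7% of the 75-base words of its annotated transcript occur in no other gene, so its reads cannot be set apart with certainty from those of other H2B genes.

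The remaining H2B genes had under 1 CPM on average. H2bu2 was over the minimum in the 3 P7 platelet libraries and in no other, so it was tested only through the group where it was high. Its log2 fold change for P7 platelets against control was 2.24 ± 0.48 (adjusted p = 0.00294, edgeR), at 0.375 ± 0.0651 CPM with P7 platelets, 0.171 ± 0.0819 CPM with adult platelets and 0.0773 ± 0.0467 CPM in controls (SD, n = 3 each). H2bc9 fell by 1.31 ± 0.44 (adjusted p = 0.0292), at 0.636, 0.226 and 0.257 CPM with P7 platelets, 0.996, 0.458 and 0.593 CPM with adult platelets and 1.25, 0.761 and 0.785 CPM in controls. That call was lost without P7 platelet replicate 2 (adjusted p = 0.0990), without P7 platelet replicate 3 (0.103) or without control replicate 1 (0.0993). H2bc8 and H2bc11 did not pass in any comparison.

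In class H3 the tested genes were few and low, and H3c11 was the one that passed. H3c11 was over the minimum in 3 P7 platelet libraries, 1 adult platelet library and 0 controls, so it was tested only through the group where it was high. It stood at 0.803, 0.716 and 0.963 CPM in the P7 platelet libraries, 0.156, 0.143 and 0.445 CPM in the adult platelet libraries and 0.125, 0.0787 and 0.101 CPM in the controls. P7 platelet libraries lay above the other 6, and the log2 fold change was 2.98 ± 0.44 against control (adjusted p = 0.000347, edgeR) and 1.73 ± 0.40 against adult platelets (adjusted p = 0.00778). Its annotated transcript shares most of its 75-base words with other H3 genes, 21.7% being unique. H3c4 stood at 0.736, 0.603 and 0.803 CPM with P7 platelets, 0.810, 0.572 and 0.741 CPM with adult platelets and 0.575, 0.525 and 0.355 CPM in controls, and did not pass (0.56 ± 0.26 for P7 platelets against control, adjusted p = 0.0896). H3c8 averaged 0.238 CPM and did not pass.

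In class H4, levels of H4c9 and H4c3 were highest with P7 platelets, next with adult platelets and lowest in control. H4c9 (older symbol Hist1h4i) stood at 19.3, 16.3 and 16.5 CPM in the P7 platelet libraries, 10.4, 7.07 and 9.67 CPM in the adult platelet libraries and 4.90, 3.49 and 3.93 CPM in the controls. The groups were wholly separate, with log2 fold changes of 2.08 ± 0.17 for P7 platelets against control (adjusted p = 9.73e-06, edgeR), 1.14 ± 0.17 for adult platelets against control (adjusted p = 0.00156) and 0.94 ± 0.16 for P7 against adult platelets (adjusted p = 0.00172). H4c3 stood at 3.21, 2.53 and 2.73 CPM with P7 platelets, 1.12, 0.915 and 1.60 CPM with adult platelets and 0.350, 0.0525 and 0.203 CPM in controls. H4c3 was over the minimum in all 6 platelet libraries and in 1 control, so its test also rested on the groups where it was high. It rose by 3.77 ± 0.45 with P7 platelets and by 2.56 ± 0.46 with adult platelets against control on the log2 scale (adjusted p = 8.77e-05 and 0.00387, edgeR). Its difference between P7 and adult platelets, 1.22 ± 0.38 (adjusted p = 0.0298), did not hold when adult platelet replicate 1 (adjusted p = 0.0815), adult platelet replicate 2 (0.0776) or P7 platelet replicate 1 (0.0714), 2 (0.0604) or 3 (0.0690) was left out.

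H4c8 was lower in level but differed between P7 platelets and both other groups. It had 1.47, 1.24 and 1.32 CPM with P7 platelets, 0.405, 0.544 and 0.534 CPM with adult platelets and 0.275, 0.236 and 0.431 CPM in controls, and rose by 2.08 ± 0.26 against control and 1.44 ± 0.25 against adult platelets (adjusted p = 0.000112 and 0.00191, edgeR). It was over the minimum in all 6 platelet libraries and in 2 controls, and would not have been tested on the controls alone. H4c4 and H4f16 did not pass in any comparison. Hist1h4m, under the minimum for the test, had 19, 10 and 6 counts with P7 platelets, 1, 4 and 4 counts with adult platelets and 0 counts in each control library. Against a floor of 3 counts over the 3 controls, these counts were 15.7-fold higher with P7 platelets and 3.50-fold higher with adult platelets. The floor allows for counting error in the controls only, and that of the few platelet counts is left out. Most of its 75-base words also occur in other genes, so these reads may belong to other H4 genes.

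**Figure D3:**
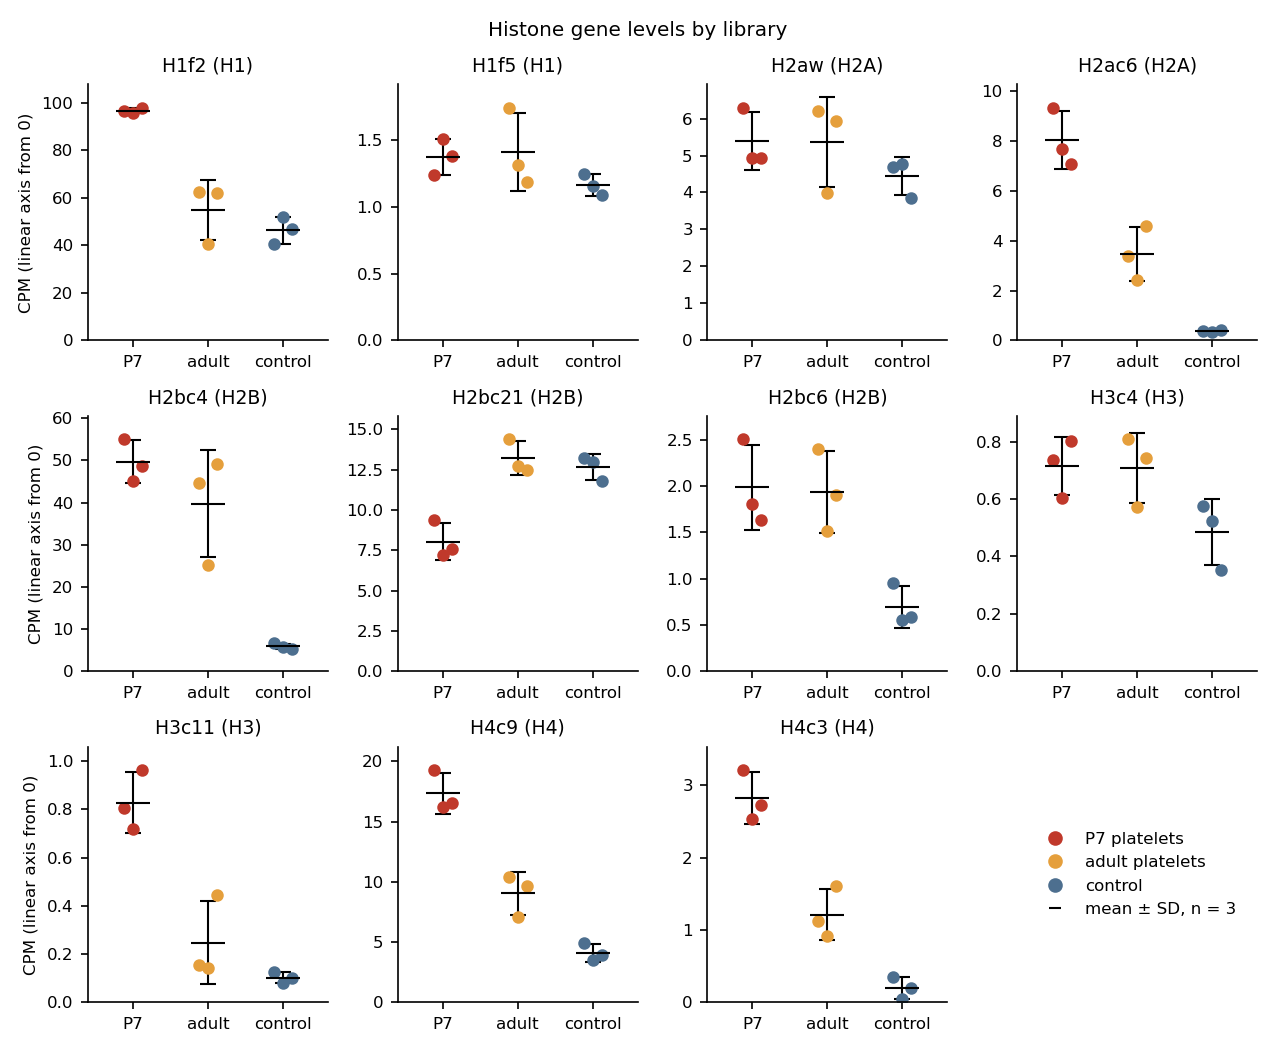
CPM in every library for 11 histone genes, with the mean and SD of 3 libraries, on linear axes from 0. H2ac6, H2bc4, H4c9 and H4c3 are low in controls and high in both platelet groups, H1f2 is high with P7 platelets, and H2bc21 is low with P7 platelets.

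Marker shares moved together with several of these genes. Among the adult platelet libraries, replicate 2 had the lowest platelet marker share, 0.111% against 0.183% and 0.202%, and also the lowest H2bc4, H2ac6, H1f2, H4c9, H4c3 and H2bc15. Over the 6 platelet libraries H2bc4, from 25.3 to 55.1 CPM, had the same order as the platelet share, with P7 and adult platelet libraries interleaved. The erythroid share did not order H2bc4 in that way: adult platelet replicate 3 had 49.1 CPM with an erythroid share of 0.0504%, and P7 platelet replicate 3 had 48.7 CPM with 4.92%. H1f2 stood at 95.7 CPM or more in the 3 libraries with erythroid shares over 4% and at 62.5 CPM or less in the other 6. Those 3 are the P7 platelet libraries, so this split cannot separate erythroid share from group. In adult platelet replicates 1, 2 and 3, erythroid shares of 0.180%, 0.0644% and 0.0504% came with 62.5, 40.6 and 62.0 CPM of H1f2. With platelet, erythroid and mitochondrial transcripts left out of the scaling, all calls named here held. That setting keeps every histone read, whatever cell it came from, so it does not bear on their source. The part of platelet or red cell RNA in these levels was not tested.

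**Figure D4:**
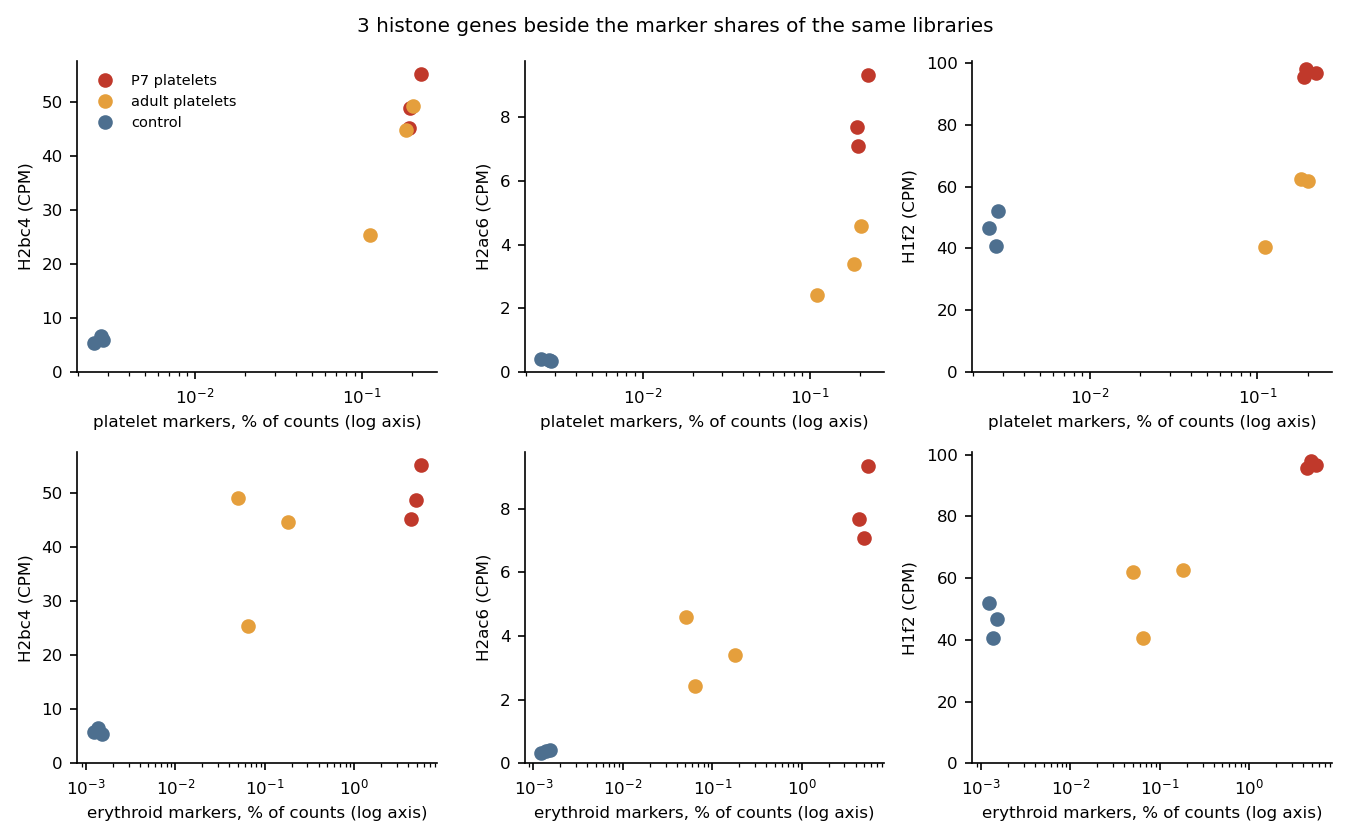
CPM of H2bc4, H2ac6 and H1f2 in each library (linear axes from 0) against the share of its counts held by platelet markers (upper row) and erythroid markers (lower row), on log axes. P7 and adult platelet libraries overlap in H2bc4 and in platelet share, and the P7 platelet libraries stand apart in H1f2 and in erythroid share.

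The genes outside the histone set whose log2 levels followed H2bc4 most closely over the 9 libraries were Gchfr, Slc24a3, Parvb, Ston2 and Cdc42ep5, with Pearson correlations of 0.996 to 0.998. Those closest to H1f2 were Dapk2, Epb42, Dnajb2, Plvap and Kel, at 0.963 to 0.969. Epb42 encodes a protein of the red cell membrane skeleton and Kel the Kell blood group glycoprotein of red cells. The correlations are descriptive, since the 9 points share their libraries and fall into 3 groups that differ in many genes. Among histone genes, H2ac6 was closest to H2bc4 (0.969) and H2bu2 closest to H1f2 (0.961).

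Replication-independent histone variants mostly have polyadenylated mRNAs. Of 10 tested, 3 rose and 4 fell with P7 platelets against control, near the 29.9% and 29.3% of all genes. With adult platelets against control 4 rose and 0 fell (14.3% and 12.0% of all genes), and with P7 against adult platelets 1 rose and 4 fell (19.7% and 19.8%). H3f3b, which encodes the variant H3.3, averaged 827 ± 67.6 CPM with P7 platelets, 549 ± 23.3 CPM with adult platelets and 408 ± 3.12 CPM in controls (SD, n = 3 each), a log2 fold change of 1.02 ± 0.07 for P7 platelets against control (adjusted p = 2.78e-06, edgeR). H1f0, the linker histone of non-dividing cells, and H1f10 rose against control with P7 platelets (1.09 ± 0.14 and 1.70 ± 0.24) and with adult platelets (0.81 ± 0.14 and 1.81 ± 0.24). Macroh2a1, H2az2 and H2aj were among the 4 lower with P7 platelets, at -0.42 ± 0.06, -0.38 ± 0.08 and -0.30 ± 0.11 against control.

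Factors that make and degrade histone mRNA were called at shares at or below those of all genes. Of 17 tested, 4 rose and 4 fell with P7 platelets against control (all genes 29.9% and 29.3%), 2 rose and 2 fell with adult platelets against control (14.3% and 12.0%), and 0 rose and 2 fell with P7 against adult platelets (19.7% and 19.8%). Zfp473, whose product ZFP100 takes part in histone 3′ processing, averaged 2.55 ± 0.172 CPM with P7 platelets, 4.53 ± 0.206 CPM with adult platelets and 5.36 ± 0.299 CPM in controls, a log2 fold change of -1.07 ± 0.11 for P7 platelets against control (adjusted p = 3.17e-05, edgeR). Lsm11, a subunit of the U7 particle that directs the cut after the stem-loop, fell by 0.56 ± 0.09 (adjusted p = 0.000423). Slbp, the stem-loop binding protein, rose by 0.20 ± 0.07 (adjusted p = 0.0276).

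Genes of S phase and mitosis were measured as the usual companions of histone synthesis. Of 31 S-phase genes, 12 rose and 6 fell with P7 platelets against control, about the 59.2% of all genes called there. With adult platelets against control 13 rose and 0 fell, where 14.3% of all genes were higher and 12.0% lower, and with P7 against adult platelets 3 rose and 7 fell, where 39.6% of all genes were called. Their median log2 fold changes were 0.11, 0.19 and -0.07 in these comparisons. Cdt1, a licensing factor of replication origins, fell by 1.16 ± 0.10 with P7 platelets against control (adjusted p = 1.28e-05, edgeR), while Cdc45, a helicase component, rose by 0.64 ± 0.06 (adjusted p = 1.72e-05). The S-phase genes held 0.186% to 0.189% of counts with P7 platelets, 0.219% to 0.231% with adult platelets and 0.199% to 0.212% in controls. These are shares of the library total without TMM factors, and those factors were lower in each P7 platelet library than in any other. The lower shares with P7 platelets therefore do not show lower scaled levels, whose median log2 fold change against control was 0.11. Of 15 mitosis genes, 5 rose and 1 fell with P7 platelets against control, where 29.9% of all genes were higher and 29.3% lower. With adult platelets against control 4 rose and 0 fell (14.3% and 12.0% of all genes). With P7 against adult platelets 0 rose and 2 fell (19.7% and 19.8%). Of 12 histone chaperones, 8 rose and 2 fell with P7 platelets and 5 rose and 0 fell with adult platelets against control, beside 29.9% higher and 29.3% lower of all genes with P7 platelets and 14.3% and 12.0% with adult platelets, Daxx being highest with P7 platelets (1.11 ± 0.12).

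The 3′ ends of the annotated transcripts were set beside the levels, since the libraries hold RNA selected by its poly(A) tail. In 21 genes the annotated transcript ran more than 100 nt past the stem-loop, and these held 65.4% of the histone counts. In 16 it ended within 100 nt of the stem-loop, and these held 2.07%. In 8 genes the annotation stopped at the stop codon (2.14%) and in 5 there was no match (30.3%). The counts came from few genes of each kind: per kb of transcript, the median over genes was 0.395 CPM for the longer ends and 0.306 CPM for the short ones, as means over 9 libraries, and the highest values were 42.4 CPM per kb (H1f2) and 1.53 CPM per kb (H4c8). Genes over 1 CPM per kb numbered 5 of 21 with longer ends, 1 of 16 with short ends, 2 of 8 and 2 of 5. A polyadenylation signal AATAAA lay in the last 50 nt of the annotated transcript of 10 genes, H1f2 and H2bc21 among them, and ATTAAA in 3, among them H4c9. The ends of the RNAs in these libraries were not measured.

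**Figure D5:**
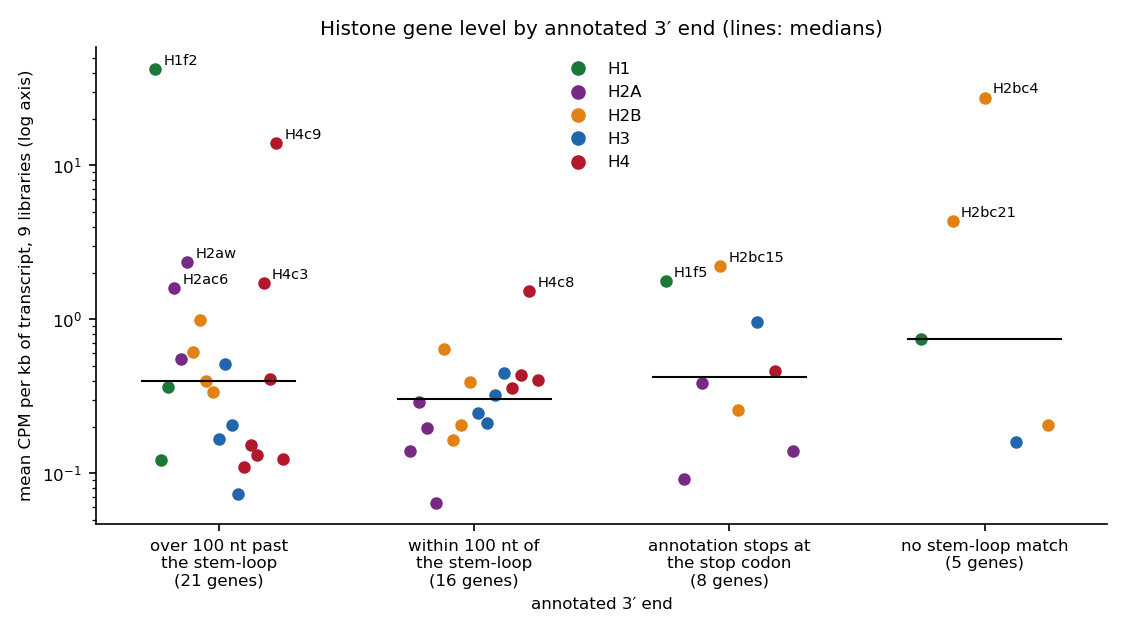
Mean level over 9 libraries in CPM per kb of annotated transcript (log axis) of the 50 histone genes, by annotated 3′ end, with lines at the medians. H1f2, H2bc4 and H4c9 stand apart from the rest, at 42.4, 27.5 and 14.0 CPM per kb, and the medians of the kinds of end lie between 0.306 and 0.744 CPM per kb.

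Small RNAs that mostly lack a tail, such as Rn7sk, snoRNAs and scaRNAs, were also summed. Whether their sum reflects the amount of longer RNA without a tail was not tested. Of these 168 symbols, 95 had no count. The sum was 0.00129% to 0.00131% of counts with P7 platelets, 0.00146% to 0.00147% with adult platelets and 0.00160% to 0.00192% in controls, as shares of the library total without TMM factors. Of the 15 tested, 1 rose and 1 fell with P7 platelets against control and 0 rose and 1 fell with adult platelets against control, with median log2 fold changes of 0.05 and 0.12. Rn7sk was the one that fell, by 0.99 ± 0.22 with P7 platelets and 0.97 ± 0.22 with adult platelets (adjusted p = 0.00397 and 0.0121, edgeR). The 2 mitochondrial rRNAs held 0.917% to 1.22% of counts with P7 platelets, 0.853% to 1.03% with adult platelets and 0.131% to 0.157% in controls. The part of selection in the histone values was not tested.

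Near-identical copies limit the values of single genes. Of the 50 genes, 4 had only 75-base words found in no other gene, and 17 had under 50 in 100 such words unique. H2bc21 was wholly unique, H1f2 was unique at 93.3% of its words, H2ac6 at 88.9%, H4c3 at 83.1%, H4c9 at 77.6% and H2bc4 at 72.9%. How reads that match several genes were counted was not given in the sources used here. Among the 70 histone rows found, 10 had no reads in any library, and the most unique of these had 82.6% of its words unique.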

How the data were processed

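The authors deposited 1 table of raw counts per library, with 55367 gene symbols and whole-number counts (9 libraries, 29687341 to 37065564 counts each). Per the submitters' processing notes, Salmon 1.3.0, Subread 2.0.1 (featureCounts), STAR 2.7.6a and fastp 0.20.1 were used, with no role named. Genome build, annotation, strand setting and handling of reads matching several genes: not given in the sources used here. Per the labels' protocols, the kit marks strand.

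Groups came from the sample labels. Genes were filtered with filterByExpr (minimum count 10), scaled by TMM and tested across 13707 genes in all 9 libraries with edgeR 4.0.16's quasi-likelihood test (R 4.3.3) and Benjamini-Hochberg adjustment at 0.05. The script was tested on simulated data. DESeq2 1.42.0 and limma 3.58.1 (voom) served as alternatives, beside other factors, filters, terms and libraries left out. CPM are counts scaled to library size with TMM factors, and the floor used for Hist1h4m allows for counting error in the controls only.

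Histone genes were matched by symbol or older RefSeq symbol. The symbol rule as worded finds 3 genes in these tables, and the older symbols give 50. The members and lists were chosen with earlier results of these data known. Values of every library are given for histone genes called in any comparison with at least 1 CPM on average, and for the 2 with most counts per class. Other histone genes that passed the filter may be named. Of each other list, up to 6 genes with the smallest p may be named, and likeness is the Pearson correlation of log2(CPM + 0.5) over 9 libraries. Stem-loops, signals and 75-base words come from GENCODE M21 (GRCm38) transcripts, and promoters from RefSeq (GRCm38.p6).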

Additional observations from a re-analysis of the deposited data

How the results depend on the processing

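Under other factors, filters, tests, terms and libraries left out, 129 values of calls and summed CPM kept their direction, threshold side or size. So did 624 other values, those of single histone genes among them. The main exceptions follow, and 14 of the other values also moved in size and are not all listed. A mean of at least 50 counts, which tests fewer genes, left 5 histone genes higher and 1 lower for P7 platelets against control and 3 higher for P7 against adult platelets. Leaving out each library in turn gave 1 to 2 histone genes lower for P7 platelets against control and 1 to 2 lower for P7 against adult platelets. The log2 ratio of summed histone CPM for P7 platelets against control was 0.98 without TMM factors, 1.07 with platelet, erythroid and mitochondrial transcripts left out of the total, and 1.46 without H1f2. For adult platelets against control it was 1.14 without H1f2, and 0.62 to 0.90 with each library left out (a setting chosen after seeing the data).

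Deviations of same-numbered libraries from their group means correlated at 0.50 to 0.60 for number 1 and 0.27 to 0.39 for number 2. For number 3 the correlations were -0.10 to 0.39. Libraries of numbers 1 and 2 thus shared part of their variation, and the main fit has no term for it. Whether the numbers mark a batch was not tested. With the replicate number as a block, 2 histone genes in place of 1 were lower for P7 against adult platelets. Over all genes the block gave 4336 higher and 4229 lower for P7 platelets against control, in place of 4097 and 4014.

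The sign turned only for small differences that did not pass. For adult platelets against control, H2bc21 ranged from -0.0089 to 0.0968 with a library left out. For P7 against adult platelets, upper-quartile factors turned H2aw to -0.065 (adjusted p = 0.811), H3c4 to -0.0536 and H2bc6 to -0.0347, and no filter turned H2aw to -0.0068. With a library left out, H2aw was -0.1612 to 0.1232, H1f5 -0.1529 to 0.1347, H3c4 -0.1058 to 0.1247 and H2bc6 -0.1671 to 0.2181. The cause was not tested. Depth limited the 26 histone genes under the filter, at 11 to 65 counts each.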
